A study of Mus musculus with 4 samples.

Results

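Young mouse muscle stem cells grown on stiff substrate were compared with young cells grown on soft substrate, cell by cell and gene by gene. All cells of both young libraries were taken, 1360 from the soft and 1481 from the stiff substrate, which makes 2841 of the 5913 cells of the series. Both young groups were wild-type C57BL/6 cells from skeletal muscle, kept for 7 days on polydimethylsiloxane (PDMS, a silicone elastomer) tuned to 12 kPa (soft) or 29 kPa (stiff), in DMEM with fetal bovine serum. The aged groups, wild-type C57BL/6 cells on the same 12 kPa and 29 kPa substrates for 7 days, held 3072 cells and are set beside the young ones in a few places. RNA was read by droplet-based 3' sequencing of single cells after trypsin release. Each group was 1 library, and neither the number of mice behind a library nor an age beyond young and aged was given in the sources used here. The differences below therefore have no replicate check, carry no test, and cannot be told apart from differences between 2 libraries of any kind.

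Muscle stem cells, or satellite cells, are marked by the transcription factor Pax7. When activated they express Myf5 and Myod1 and divide, and the daughters that commit to muscle switch on Myog, leave the cell cycle, build sarcomeres and fuse. Because the cultures hold all of these stages at once, a gene can differ between substrates because the mix of stages differs or because cells of a stage express it differently. Each library was for this reason also split by the Myog level of the cell: a low bin (log2(CPM + 1) under 7), a middle bin (7 to under 11) and a high bin (11 and over), where CPM is a gene's UMIs (molecules counted once each) in a cell after scaling the cell to the usual fixed total.

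The soft library held 50361251 UMIs and the stiff library 44004640, with a median of 35606.5 and 28604 UMIs per cell. Fewer UMIs per cell on stiff held in each bin, with medians of 30909.5 against 23968 in the low bin. The libraries shared 0 cell barcodes. Markers of blood, vessel and nerve cells were near 0: 4 of 7 endothelial genes were found, 2 of them at 0, and summed to 0.130 CPM on soft and 0.0600 on stiff, and 8 macrophage genes to 1.44 and 1.81. The 1 T or B cell marker found stood at 1.64 and 2.01 CPM, and 4 Schwann cell markers summed to 1.80 and 1.91. Fibro-adipogenic markers (7 of 9 found) summed to 261 and 250.7 CPM, and Col3a1, a collagen, made up 237.6 and 223.6 of it. The mural list summed to 3204 and 3550 CPM, with Des, a filament protein that muscle cells also make, Notch3 and Pdgfrb at 20 CPM or more. The tenocyte list (145.3 and 169.5) and the adipocyte list (90.95 and 90.4) each had 1 gene at that level, Scx and Lpl, and the part of such cells in the results was not tested. As a check of the labelled cell type, Pax7 UMIs were found in 94.5% of low-bin cells on soft and 91.8% on stiff, against 18.5% and 17.4% in the high bin. After each cell was thinned to 10000 UMIs the shares were 73.5% and 71.1% in the low bin and 6.83% and 7.13% in the high bin. The 9 progenitor markers found summed to 995 CPM in the low and 188.3 in the high bin on soft, and to 934.8 and 183.1 on stiff. Not all of them followed Pax7. Megf10 stood at 68.3 CPM in the low and 86.8 in the high bin on soft, and at 67.0 and 79.7 on stiff. Chrdl2 (1.43 CPM on soft, 2.05 on stiff) and Msc (1.20 and 0.640) were near 0 over all cells. Calcr, another satellite cell marker, was looked for but is not among the 13772 genes with values.

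The intervals of the bin shares overlapped between the libraries in every bin. The low Myog bin took 38.7% of soft cells (95% exact binomial interval 36.1 to 41.3) and 37.7% of stiff cells (35.3 to 40.3). The middle bin took 31.2% (28.7 to 33.7) and 32.7% (30.3 to 35.1), and the high bin 30.1% (27.7 to 32.7) and 29.6% (27.3 to 32.0). The bins are steps of Myog and not of maturity. On soft, 10 markers of differentiated muscle cells summed to 783 CPM in the low, 50184 in the middle and 41894 in the high bin. On stiff these sums were 493, 55605 and 44020. In the aged pair the low bin took 20.3% on soft and 15.2% on stiff, and the middle bin 47.2% and 56.1%. Mean Myog itself was 1533 CPM on soft and 1555 on stiff. Cells with no Myog UMI were fewer on soft, 23.3% (21.1 to 25.6) against 29.4% (27.1 to 31.8). Once every cell was thinned to 10000 UMIs, so that depth was equal, the shares without Myog were 32.5% (30.03 to 35.1) and 34.0% (31.6 to 36.5), which overlap. All intervals here and below cover counting error only.

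**Figure D1:**
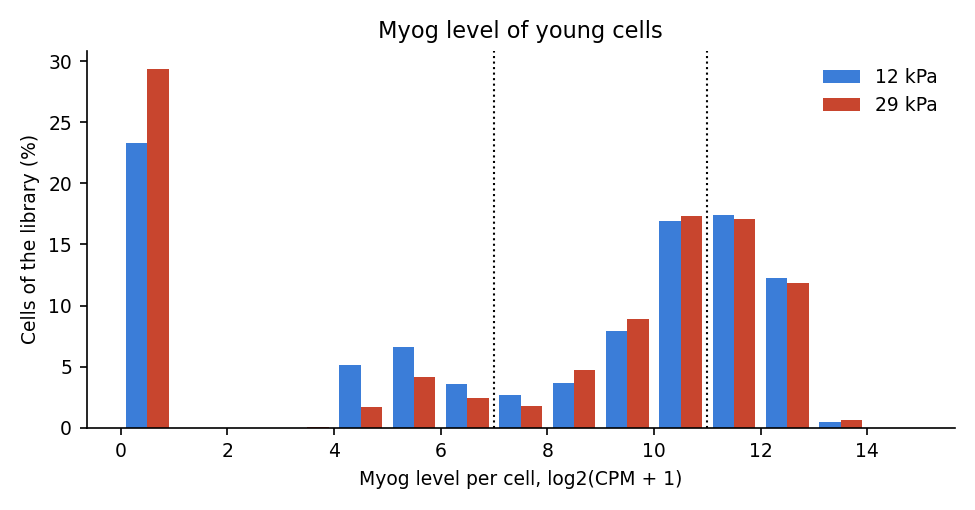
Share of each young library's cells (%, vertical) by the Myog level of the cell in log2(CPM + 1) (horizontal, steps of 1), 12 kPa in blue and 29 kPa in red; the leftmost bars are cells without a Myog UMI and the dotted lines are the bin edges at 7 and 11. The profiles run together above 7, and the leftmost bars are 23.3% on soft and 29.4% on stiff before depth is made equal.

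Few genes stood apart between the substrates. A gene's level is the mean over cells of its CPM, and its difference is the log2 ratio of stiff to soft after adding 5 CPM to both, and a gene counts as measured from 20 CPM in 1 of the libraries, which 6032 genes reached. Past 1.5-fold lay 1 gene upward on stiff (0.0166%) and 9 genes downward (0.149%). A log2 ratio past 0.32 in size, the milder limit used below, was reached by 11 genes upward (0.182%) and 36 downward (0.597%). Ratios above 0 made up 38.8% of all measured genes, with a median of -0.03, so a list with about that share of higher members resembles the rest. Within bins the counts past 1.5-fold were again small. In the low bin 4 of 6345 genes were higher (0.063%) and 22 lower (0.347%). In the middle bin 2 of 5656 were higher (0.0354%) and 12 lower (0.212%), and in the high bin 4 of 5524 were higher (0.0724%) and 7 lower (0.127%). Ratios were above 0 for 43.7%, 41.3% and 38.3% of genes in the low, middle and high bins.

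The 1 gene past 1.5-fold upward, B230312C02Rik, an uncharacterised transcript named here after its value was seen, stood at 12.8 CPM on soft and 22.7 on stiff. Of the 9 genes past it downward, Hist1h2ap, Hist1h2ae and Hist1h4d are replication-dependent histones, Gstp1 is a glutathione transferase, Ctgf encodes a secreted matricellular protein, and AY036118, Gm10076 and Gm26917 are gene models. For Gm26917, 1 soft cell at 63911 CPM made up 47.4% of that library's sum. Without the top cell of each library Gm26917 was 52.2 CPM on soft and 55.1 on stiff.

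Many of the lowest ratios belonged to genes whose 3' end resembles other genes. For each gene the share of 30-base words in the last 500 bases of its transcripts that also occur in another gene's transcripts was counted. Among the 4782 genes with none, the ratios had an SD of 0.10 and 18 (0.376%) were below -0.32. Among the 111 genes with over 75%, the SD was 0.25 and 11 (9.91%) were below -0.32, against 0 above 0.32. Gstp1 (83.9% shared words), Hist1h2ap (93.4%), AY036118 (100%) and Gm10076 (85.4%) are of this kind, and how the authors' counting divided such reads was not tested. Their levels are uncertain for this reason.

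**Figure D2:**
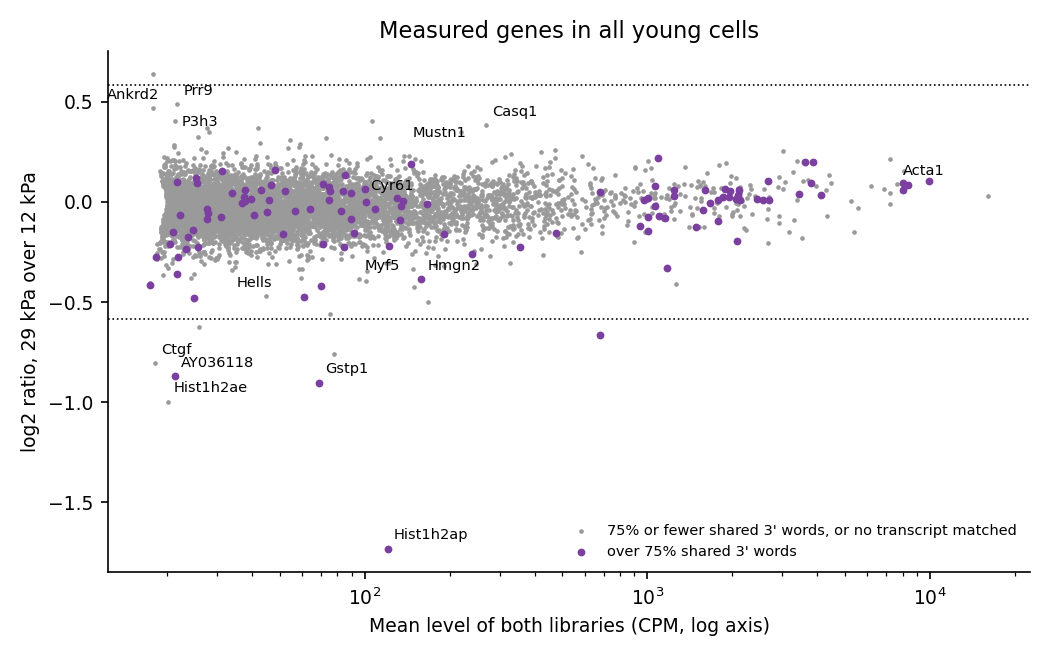
Log2 ratio of stiff to soft (vertical) against the mean level of both libraries in CPM (horizontal, log axis) for the measured genes, 1 point a gene, all young cells; purple points have over 75% of their 3' words in common with other genes, and the dotted lines mark 1.5-fold. Most genes lie close to 0, and the points far below the lower line include Hist1h2ap at -1.73 and Gstp1 at -0.90.

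Genes of DNA replication were lower on stiff as a group. All 42 measured members of a 55-gene S phase list were lower, with a median of -0.15 against -0.03 for all genes. Hells, a chromatin remodeller needed for DNA methylation, stood at 52.97 CPM on soft and 36.8 on stiff. Pcna, the sliding clamp of the replication fork, stood at 50.9 and 40.1 CPM, and the ratio of its summed UMIs, each relative to its library total, had a counting interval of 0.774 to 0.876. Mcm4, a subunit of the replicative helicase, stood at 52.1 and 42.1 CPM, Gmnn, which blocks repeated licensing of origins, at 43.7 and 35.5, and Rpa3, a subunit of the single-strand binding complex, at 28.6 and 21.2. Weighting the stiff cells to the bin shares of the soft library left all 42 lower, with a median of -0.14, and weighting in Myog bins of 1 log2 unit brought the median to -0.08.

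The same held inside the bins. In the low bin, where most dividing cells lie, 48 of 51 measured S phase genes were lower, with a median of -0.12. In the middle bin all 26 were lower, with a median of -0.23, and in the high bin 9 of 10, with a median of -0.13. Pcna in the low bin was 98.3 CPM on soft and 75.6 on stiff, and Hells 110.3 and 81.9. After thinning, Pcna was found in 49.5% (45.1 to 53.9) of low-bin cells on soft and 38.3% (34.2 to 42.5) on stiff, intervals that do not overlap. For Hells the shares were 44.7% (40.4 to 49.1) and 39.5% (35.4 to 43.7), which do. The summed S phase UMIs of a thinned low-bin cell had a median of 32 on soft and 26 on stiff. Their upper quartile was 77 and 65, and their upper decile 114 and 111. In middle-bin cells the median was 5 and 4, the upper quartile 7 in both libraries, and the upper decile 46 and 21. Myog bins do not separate dividing from other cells, and the part of the share of dividing cells was not tested. Among thinned high-bin cells, Pcna was found in 11.7% (8.76 to 15.2) on soft and 11.5% (8.65 to 14.9) on stiff. The shares there were 8.78% (6.23 to 11.9) and 6.21% (4.13 to 8.90) for Mcm4, and 4.39% (2.62 to 6.85) and 3.22% (1.77 to 5.34) for Hells. These high-bin intervals overlap for each gene.

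Genes of G2 phase and mitosis did not share this. Of 44 measured members of the list, 20 were higher and 24 lower, with a median of -0.01, and in the low bin 28 were higher and 20 lower, with a median of 0.02. Top2a, the topoisomerase that untangles chromosomes, stood at 626 CPM in the low bin on soft and 634 on stiff. Mki67, a surface protein of mitotic chromosomes, stood at 266 and 258, and Cdk1, the mitotic kinase, at 209 and 208. Hmgb2, a chromatin protein, was the lowest member in the low bin at 416 and 337 CPM, and Kif22, a chromosome-arm kinesin, the highest at 38.7 and 47.4.

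E2F factors are known to drive S phase genes, and the cell cycle homology element is known from promoters of G2 and mitosis genes. Promoters of a pair of genes from each list are shown because the lists stood apart in the data. Hells and Rfc3 were taken from the S phase genes that hold an E2F word, and Hells had the lowest ratio of its list. Top2a and Cdk1 were picked as examples. Promoter windows of 300 bases, from 250 before to 50 after the gene start, were taken from RefSeq (GRCm38.p6). The E2F words searched on both strands were TTTCCCGC, TTTCGCGC, TTTGCCGC and TTTGGCGC, and for the cell cycle homology element TTTGAA, which overlaps none of them. In the lines below, capitals mark the E2F words of the S phase genes and TTTGAA of the G2 and mitosis genes, on either strand. The Cdk1 window also holds TTTCGCGC, left in lower case. Hells lies at chr19:38930740-38931039 (plus strand), Rfc3, a subunit of the clamp loader, at chr5:151651159-151651458 (minus), Top2a at chr11:99024140-99024439 (minus) and Cdk1 at chr10:69352863-69353162 (minus).
Hells: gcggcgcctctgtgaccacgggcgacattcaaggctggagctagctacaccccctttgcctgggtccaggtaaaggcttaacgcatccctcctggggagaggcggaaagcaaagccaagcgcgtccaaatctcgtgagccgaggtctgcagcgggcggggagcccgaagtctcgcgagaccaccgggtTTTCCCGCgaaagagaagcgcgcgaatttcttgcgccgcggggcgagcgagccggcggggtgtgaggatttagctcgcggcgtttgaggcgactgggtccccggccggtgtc
Rfc3: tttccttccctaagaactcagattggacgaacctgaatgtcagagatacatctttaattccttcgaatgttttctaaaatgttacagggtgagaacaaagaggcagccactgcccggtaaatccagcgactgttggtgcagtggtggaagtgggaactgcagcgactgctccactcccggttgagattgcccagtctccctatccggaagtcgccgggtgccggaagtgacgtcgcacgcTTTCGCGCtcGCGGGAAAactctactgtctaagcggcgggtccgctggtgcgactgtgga
Top2a: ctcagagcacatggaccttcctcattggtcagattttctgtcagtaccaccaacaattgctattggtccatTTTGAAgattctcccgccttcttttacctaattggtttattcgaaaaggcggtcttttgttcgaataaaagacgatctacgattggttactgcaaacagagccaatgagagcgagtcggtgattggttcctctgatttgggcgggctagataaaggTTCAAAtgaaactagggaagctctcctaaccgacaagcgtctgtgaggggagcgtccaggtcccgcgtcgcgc
Cdk1: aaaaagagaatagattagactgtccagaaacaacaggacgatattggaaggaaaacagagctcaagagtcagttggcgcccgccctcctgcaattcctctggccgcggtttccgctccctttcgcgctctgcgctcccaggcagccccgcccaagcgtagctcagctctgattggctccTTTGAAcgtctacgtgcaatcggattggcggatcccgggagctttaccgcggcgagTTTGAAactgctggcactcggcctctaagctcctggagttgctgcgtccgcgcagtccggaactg
An E2F word was found in 13 of 39 windows of the 32 S phase genes that could be matched (33.3%), in 1 of 43 windows of the 40 matched G2 and mitosis genes (2.33%) and in 744 of all 32851 windows (2.26%). TTTGAA was found in 4 of the 39 S phase windows (10.3%), 32 of the 43 G2 and mitosis windows (74.4%) and 17.9% of all windows. Hells, with a word 62 bases before its start, was at -0.47 and Rfc3, with a pair of words, at -0.19, from 61.9 CPM on soft to 53.7 on stiff. Top2a was at 0.01 and Cdk1 at -0.04. Because the genes shown were chosen by word and value, their ratios cannot test a link between word and ratio. A match describes the letters of the window and is not evidence that a factor binds there.

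In the low bin of the aged pair the S phase list lay on the other side of 0. The G2 and mitosis list, nearly level in young low-bin cells, was lower on stiff in the aged ones. There 33 of 42 S phase genes were higher on stiff, with a median of 0.19, and all 48 G2 and mitosis genes were lower, with a median of -0.43. In all aged cells the S phase median was -0.04 (8 of 17 higher), and in the aged high bin 13 of 14 G2 and mitosis genes were higher, with a median of 0.29. Pcna in the aged low bin was 36.7 CPM on soft and 50.7 on stiff, and Cenpf, a kinetochore protein, 163 and 85.7. With 1 library a group, the difference between young and aged responses was not tested.

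**Figure D3:**
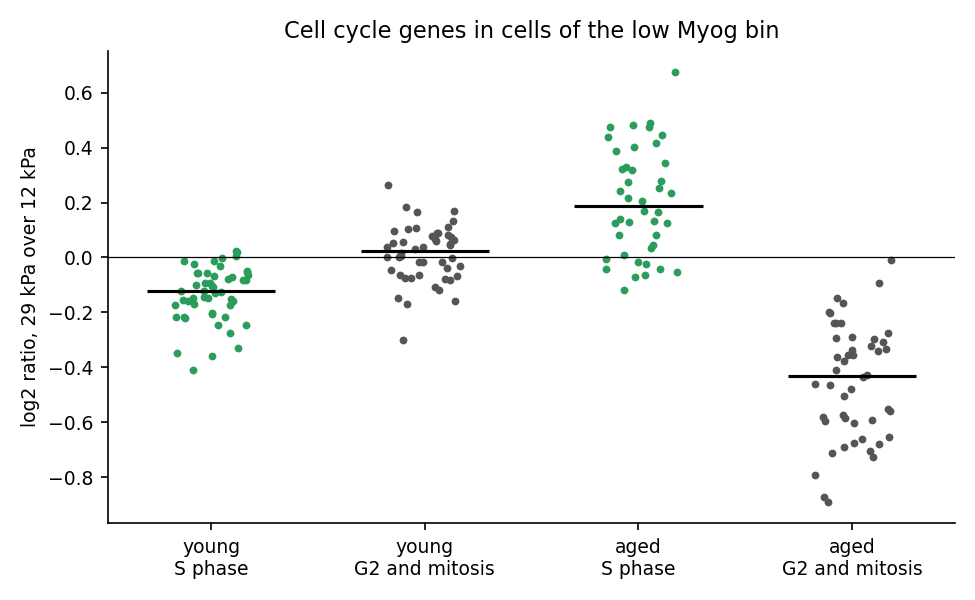
Log2 ratio of stiff to soft in cells of the low Myog bin (vertical), 1 point per measured gene, for the S phase list (green) and the G2 and mitosis list (grey) in young and aged cells; bars are medians. In young cells the S phase points lie mostly below 0, with a median of -0.12, and the G2 and mitosis points around it, with a median of 0.02; in aged cells the medians are 0.19 and -0.43.

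Transcripts of replication-dependent histones are made in S phase and mostly carry no poly(A) tail. Of 9 measured histone genes 6 were lower, a share near that of all genes (3689 of 6032), with a median of -0.42. Hist1h2ap stood at 187.8 CPM on soft and 53.1 on stiff, Hist1h1b, a linker histone, at 197 and 137.7, Hist1h2ae at 28.4 and 11.7, and Hist1h4d at 32.5 and 19.3. Hist1h1b has 6.58% shared words and Hist1h4d none. Over the 6 histone genes with at most 25% shared words the median was 0.00, and 3 of them were higher. Hist1h1b was found in 40.1% (35.9 to 44.5) of thinned low-bin cells on soft and 35.7% (31.7 to 39.9) on stiff, intervals that overlap.

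Over all cells, sarcomere and muscle metabolism genes were slightly higher on stiff. Of 15 thin filament genes 13 were higher (median 0.08), of 15 thick filament genes 10 (0.07), of 21 Z disc genes 17 (0.13), of 17 genes of the sarcoplasmic reticulum and calcium handling 13 (0.09) and of 12 muscle energy genes 11 (0.14). Casq1, which stores calcium in the sarcoplasmic reticulum, stood at 232.5 CPM on soft and 304.6 on stiff, with a counting interval of 1.28 to 1.34 for the ratio of its UMIs. Hspb7, a small heat shock protein of the sarcomere, stood at 90.9 and 121.7 CPM, Mustn1, a small muscle nuclear protein, at 191.5 and 245.5, and Mb, myoglobin, at 2765 and 3298. Some filament genes were lower instead: Neb, the thin filament ruler, stood at 1588 and 1456 CPM, Lmod2, which nucleates actin filaments, at 208.9 and 177.0, and Myh1, a fast myosin heavy chain, at 2340 and 2121. Acta1, skeletal actin, was 7399 and 7870 CPM.

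In the middle Myog bin the median was 0.13 for the Z disc and 0.17 for muscle energy genes, against 0.10 and 0.04 in the high bin. Calcium genes were at 0.12 in the middle and 0.04 in the high bin. Thin filament genes were at 0.08 in the middle bin (13 of 15 higher) and 0.02 in the high bin (11 of 15). Thick filament genes were at 0.04 (10 of 16 higher) and -0.03 (6 of 15), the latter close to the high-bin median of all genes, -0.04. In the middle bin Casq1 was 564 CPM on soft and 730.0 on stiff, against 174.7 and 217.7 in the high bin. After thinning, Casq1 was found in 64.2% (59.4 to 68.8) of middle-bin cells on soft and 73.0% (68.8 to 76.9) on stiff. In the low bin, where the gene should be silent, it was found in 1.54% and 1.26%. Thick filament genes took a median of 514.5 of 10000 UMIs in middle-bin cells on soft and 559 on stiff, a lower quartile of 162.5 and 378, and a lowest decile of 3 in both. Weighting the stiff library to the soft bin shares brought the Z disc median from 0.13 to 0.10 and the thick filament median from 0.07 to 0.03. Weighting by Myog bin and contractile level together, an alternative chosen after seeing the data, gave 0.07 for the Z disc, 0.09 for muscle energy and -0.01 for the thick filament.

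The Casq1 promoter is shown because the gene had the largest ratio of the calcium list. It lies at chr1:172219846-172220145 (minus strand), and capitals mark the E-box word CAGCTG, the same on both strands, of the kind bound by Myod1 and Myog.
Casq1: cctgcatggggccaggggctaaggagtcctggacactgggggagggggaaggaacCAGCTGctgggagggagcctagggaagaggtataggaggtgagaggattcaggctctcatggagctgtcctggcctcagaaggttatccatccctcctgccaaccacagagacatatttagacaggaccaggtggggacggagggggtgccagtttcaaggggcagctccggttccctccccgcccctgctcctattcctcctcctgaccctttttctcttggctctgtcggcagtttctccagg
CAGCTG was found in 7 of 11 windows of the matched calcium genes (63.6%), 8 of 16 of the muscle energy genes (50%), 6 of 13 of the thin filament genes (46.2%), 6 of 16 of the thick filament genes (37.5%), 4 of 21 of the Z disc genes (19.05%) and 16.3% of all windows.

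In low-bin cells the filament lists were lower on stiff, 10 of 11 thin filament genes (median -0.09) and 6 of 6 thick filament genes (-0.64), while Z disc genes (3 of 7 higher, -0.04) and calcium genes (4 of 6 higher, 0.04) lay on both sides. Acta1 averaged 190.5 CPM in the low bin on soft and 86.8 on stiff, Myh3, the embryonic myosin heavy chain, 25.9 and 9.07, and Actc1, cardiac actin, 20.5 and 9.32. These means rested on few cells: 5 soft and 3 stiff low-bin cells held over 1000 CPM of Acta1, and without them the means were 48.0 and 31.9 CPM. In thinned low-bin cells Acta1 was found in 39.0% (34.8 to 43.3) on soft and 24.0% (20.5 to 27.8) on stiff. Of 39 filament, Z disc, calcium and muscle energy genes with at least 500 CPM in the middle bin on soft, 33 had a lower low-bin mean on stiff and 6 a higher one, among them Des and Tnni1. The low-bin mean of these genes was a median of 2.12% of the middle-bin mean on soft and 1.496% on stiff. The part of free RNA and of a few misplaced cells in these values was not tested. The direction also depended on where the bin ends: the low-bin thick filament median was -0.19 after thinning and 0.19 with Myog edges at 8 and 12.

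The stretch-linked ankyrin repeat genes Ankrd1 and Ankrd2 had higher mean levels on stiff, and Ankrd23 was nearly level. Ankrd2, a stretch-responsive protein of the I band, stood at 14.1 CPM on soft and 21.5 on stiff, and in the middle bin at 30.6 and 46.9. It was found in 12.6% (9.55 to 16.1) of thinned middle-bin cells on soft and 17.3% (13.98 to 20.9) on stiff, intervals that overlap, and 16 soft and 18 stiff cells held 50% of each library's sum. Ankrd1 stood at 934 and 1079 CPM in all cells and at 1398 and 1728 in the middle bin, against 369.5 and 340.4 in the low bin. At equal depth Ankrd1 was found in 75.2% (72.8 to 77.4) of soft and 75.2% (72.9 to 77.4) of stiff cells. The shares were 85.1% (81.3 to 88.3) and 87.5% (84.2 to 90.3) in the middle bin, and 84.1% (80.2 to 87.5) and 81.1% (77.2 to 84.7) in the high bin. These intervals overlap. Ankrd2 in the high bin averaged 13.8 CPM on soft and 19.4 on stiff. It was found there in 8.05% (5.61 to 11.1) and 6.21% (4.13 to 8.90) of thinned cells. Ankrd23 stood at 88.1 and 91.1 CPM, and at 74.6 and 70.0 in the high bin, with 100% shared words.

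**Figure D4:**
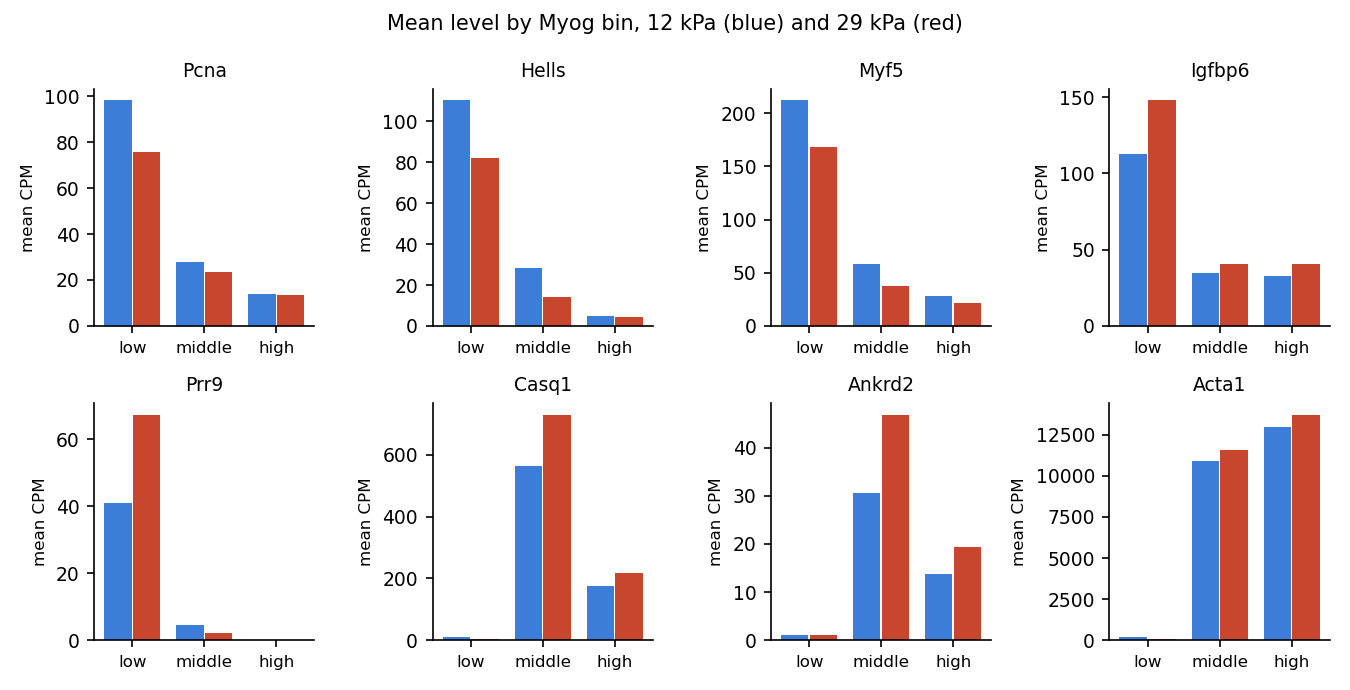
Mean level in CPM (vertical, each panel with its own scale from 0) of 8 genes in the low, middle and high Myog bins (horizontal), 12 kPa in blue and 29 kPa in red; with 1 library a group there are no error bars. Pcna, Hells and Myf5 are lower on stiff in the low and middle bins, Igfbp6 is higher in each bin, Prr9 is high in the low bin alone, and Casq1 and Ankrd2 are higher on stiff in the middle and high bins.

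Stem cell genes were mostly lower. Of 16 measured members of the stem cell and Notch list 13 were lower, with Myf5 lowest. The list median of -0.04 was close to that of all genes (-0.03), of which 3689 of 6032 were lower. Myf5 stood at 108.6 CPM on soft and 81.9 on stiff and was lower in every bin, 212 and 167.8 CPM in the low bin, 57.9 and 37.5 in the middle and 28.2 and 21.2 in the high. It was found in 67.9% (63.7 to 71.9) of thinned low-bin cells on soft and 61.2% (57.0 to 65.3) on stiff, which overlap, and in 41.8% (39.1 to 44.4) and 35.5% (33.1 to 38.0) of all cells, which do not. Pax7 stood at 72.7 and 66.1 CPM, and at 158.6 and 151.2 in the low bin. Dll1, a Notch ligand, stood at 26.3 and 21.3 CPM, and Notch1, a receptor, at 32.5 and 28.2. Myod1 was 679 CPM in the low bin on soft and 779 on stiff. Commitment and fusion genes were even, 14 higher and 13 lower (median 0.00): Mymk, a membrane protein needed for fusion, stood at 972 and 1095 CPM, and Mymx, its partner, at 54.9 and 56.4. Cdkn1c, a cell cycle inhibitor, stood at 115.4 and 86.5 CPM, but 18 soft and 20 stiff cells held 50% of the sums, and it was found in 27.6% and 27.4% of thinned high-bin cells.

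Growth factor and imprinted genes lay on both sides of 0. Igfbp6, which binds Igf2, stood at 64.1 CPM on soft and 81.2 on stiff and was higher in every bin. After thinning it was found in 51.2% (46.9 to 55.6) of low-bin cells on soft and 62.1% (57.9 to 66.2) on stiff, intervals that do not overlap. Igf2 itself stood at 29.7 and 19.9 CPM, and in the middle bin was found in 18.96% (15.3 to 23.0) and 9.98% (7.45 to 13.0) of thinned cells, but 99.7% of its 3' words are shared with other genes. H19, the noncoding RNA of the same imprinted region, stood at 1763 and 2021 CPM. In the imprinted growth list 14 of 17 genes were lower (median -0.10), among them Mest at 69.1 and 59.9 CPM and Zim1 at 20.7 and 16.1.

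Targets of YAP and TAZ, the transcriptional coactivators that respond to stiffness, showed no common shift. Of 14 measured targets 6 were higher and 8 lower, a share near that of all genes, with a median of -0.03. The highest of them was Ankrd1, given above with the stretch-linked genes, at 934 CPM on soft and 1079 on stiff. Cyr61, a matricellular target, stood at 98.7 CPM on soft and 99.6 on stiff and was found in 39.8% (37.2 to 42.5) and 40.9% (38.4 to 43.4) of cells at equal depth. Its relative Ctgf stood at 24.4 and 11.8 CPM, a ratio of -0.80. That value rested on few cells, since 11 soft cells held 50% of the sum and 1 of them 20.2%, and without the top cell of each library the ratio was -0.61. Ctgf was found in 8.65% (7.20 to 10.3) of thinned soft cells and 6.26% (5.07 to 7.62) of stiff cells, which overlap. Kinases and partners of the pathway were lower in 11 of 14 (median -0.06, against -0.03 for all genes). Stk3, a kinase upstream of YAP, stood at 21.3 and 16.6 CPM. Rock2, a kinase that drives actomyosin contraction, stood at 264 and 221.8 CPM.

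Matrix genes were lower in 18 of 23 (median -0.09): Vcan, a large proteoglycan, stood at 39.2 CPM on soft and 30.9 on stiff, Thbs1, thrombospondin, at 24.9 and 20.5, and Col4a1, a basement membrane collagen, at 135.1 and 117.9. Col1a2, of fibrillar collagen, stood at 74.9 and 85.7. Among genes that process matrix 13 of 22 were higher (median 0.02). P3h3, a collagen prolyl hydroxylase family member, stood at 17.7 and 24.95 CPM. At equal depth the shares of cells with a P3h3 UMI were 9.31% and 9.46%, and 25 soft and 20 stiff cells held 50% of the sums. Loxl2, which crosslinks collagen, was 14.5 CPM in the low bin on soft and 27.99 on stiff, and 12 stiff cells held 50% of that library's sum. Prr9, a small proline-rich protein, stood at 40.9 and 67.4 CPM in the low bin and had a UMI there in 16.3% (13.2 to 19.8) and 21.7% (18.3 to 25.3) of the cells at equal depth. Spp1, osteopontin, stood at 5680 and 5116 CPM.

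RNA decay is named in the title of the study, and its genes were mostly lower by small amounts. Of 19 proteins that bind AU-rich elements 16 were lower (median -0.09), and 17 of 19, 15 of 18 and 16 of 18 were lower in the low, middle and high bins. Zfp36l1 and Zfp36l2, which recruit the deadenylase, stood at 55.3 CPM on soft and 48.7 on stiff and at 80.8 and 71.4, and Tial1, an AU-rich RNA binding protein, at 52.3 and 45.8. Deadenylation genes were lower in 12 of 15 (median -0.04) and decapping genes in 12 of 14 (-0.02). Nonsense-mediated decay genes were lower in 9 of 13 (-0.08) and exosome genes in 11 of 14 (-0.05). Of all 6032 measured genes, 3689 were lower. The highest member of the deadenylation list, Cnot3, stood at 123.1 CPM on soft and 137.8 on stiff. The highest exosome member, Exosc2, stood at 87.1 and 100.2. Xrn1, the 5' to 3' exonuclease, stood at 25.1 and 24.9 CPM, Upf1, the helicase of nonsense-mediated decay, at 44.4 and 43.9, Cnot1, the scaffold of the deadenylase, at 41.8 and 41.2, and Dcp2, the decapping enzyme, at 20.5 and 17.9. The counting intervals of the UMI ratios included 1 for Xrn1, Upf1 and Cnot1, and spanned 0.791 to 0.957 for Dcp2. The median over all genes was -0.03, and scaling the libraries to their median ratio would raise every ratio by 0.03, which puts the decapping and the G2 and mitosis medians above 0.

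**Figure D5:**
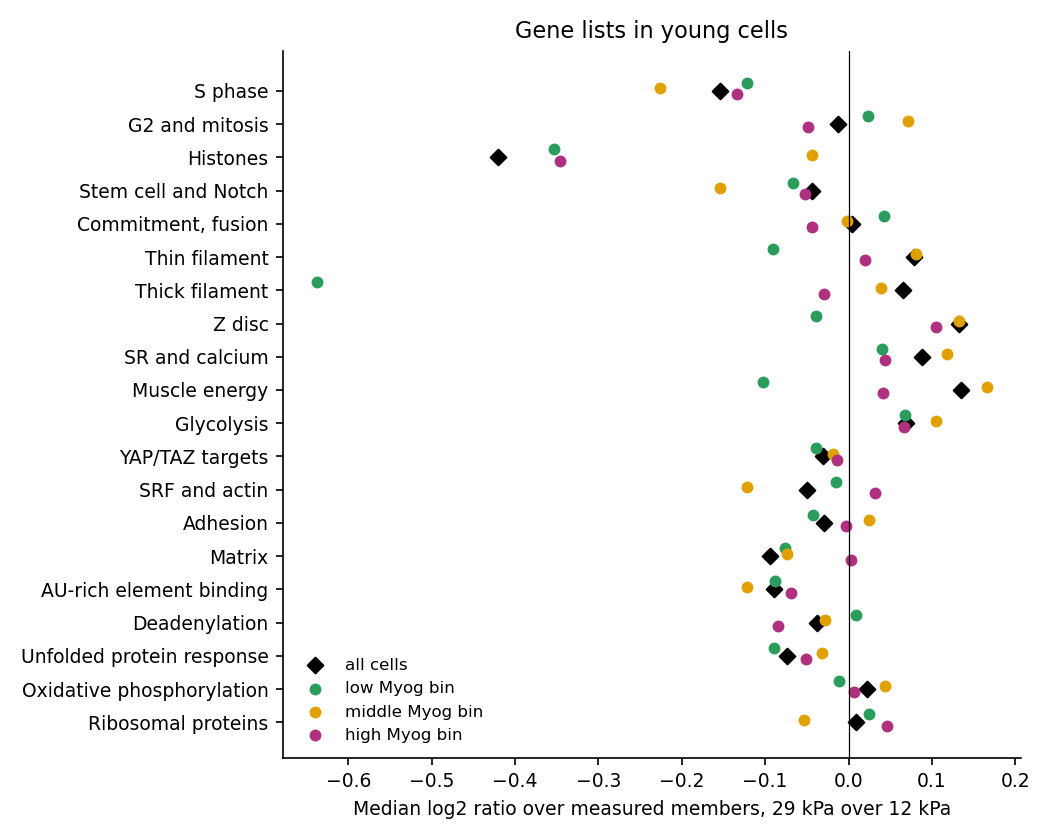
Median log2 ratio of stiff to soft over the measured members (horizontal) for 20 gene lists (vertical), in all young cells (black diamonds) and in the low (green), middle (yellow) and high (purple) Myog bins; lists with under 3 measured members in a bin have no point there. The S phase list lies left of 0 in every bin, and the Z disc list lies right of 0 in the middle and high bins and at -0.04 in the low bin.

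Other lists lay close to 0. Glycolysis genes were higher in 12 of 16 (median 0.07), with Pkm, pyruvate kinase, at 1540 CPM on soft and 1701 on stiff. Unfolded protein response genes were lower in 15 of 18 (median -0.07), with Pdia4, a disulfide isomerase, at 103.3 and 89.2. Sterol and lipid synthesis genes were lower in 12 of 15 (median -0.07), and in the middle bin Idi1, an isomerase of the sterol pathway, stood at 49.7 and 29.6 CPM. Nuclear genes of oxidative phosphorylation had a median of 0.02 and ribosomal protein genes of 0.01, although Rpl35 stood at 1306 and 1037 CPM and Rpl29 at 1005 and 1169, with 84.9% and 92.1% of their 3' words shared.

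Few genes passed a log2 ratio of 0.32 in size in the same direction in every Myog bin. Of 4787 genes measured in all 3 bins, 10 lay below -0.32 in each (0.209%) and 0 above 0.32 in each. Besides Myf5, Hist1h2ap, Gstp1, AY036118 and Gm10076 they included Snrpg, a core protein of the splicing machinery, at 171.2 CPM on soft and 126.4 on stiff, Hmgn2, a nucleosome-binding protein, at 180.2 and 136.8, Erh, a small conserved nuclear protein, at 71.5 and 49.99, and Usp50, a ubiquitin protease family member, at 90.8 and 59.9. Shared words were 84.5% for Hmgn2, 95.1% for Erh and 0% for Snrpg, Usp50 and Myf5.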

How the data were processed

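Per-cell values as deposited were log2(CPM + 1) for 13772 genes, a unit found from the values. The submitters' processing notes name Cell Ranger 6.1.2 and Partek with no role; build, annotation and filters are not given in the sources used here. The log2 was undone before averaging. UMI counts were worked back from the value steps (99.956% and 99.953% of low values in the young soft and stiff libraries were whole within 0.05; 11 symbols, Aldoa among them, were not) and served depth, thinning to 10000 UMIs and exact intervals. Means over cells of CPM were compared with a pseudocount of 5 CPM and a minimum of 20 CPM, which understates the difference of low genes. No doublet caller was run. Shared 3' words came from principal transcripts of GENCODE M21. The steps were tested on simulated data (Python 3.11.15, numpy 2.4.6, pandas 2.3.3, scipy 1.17.1).

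Genes were named by rule: the 15 largest and 15 smallest ratios without unnamed gene models, 8 a side per bin, up to 12 alike in all bins, up to 5 per list and a fixed set. B230312C02Rik, Gm26917, Cenpf, Rfc3, Cdk1 and other members given as examples were picked with values in view. The comparison, the 36 lists, the rule and the alternatives were chosen with earlier results of these data known. For 1 gene that met the rule no value is given and no point is drawn, though it stays in the counts.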

Additional observations from a re-analysis of the deposited data

Results flagged for a closer look

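For 7 genes with a log2 ratio past 0.32 in size in both pairs, the young and the aged pair lay on opposite sides; with 1 library a group this difference was not tested. Hist1h2ap had a log2 ratio of -1.73 in young and 1.49 in aged cells. Gstp1 had -0.90 in young and 0.72 in aged cells, and its level on aged soft, 54.3 CPM, was close to that on young stiff, 46.6 CPM. Gm10076 had -0.67 and 0.89, Usp50 -0.56 and 0.71, and Grcc10 -0.42 and 0.54. P3h3 had 0.40 in young and -0.43 in aged cells, and Prr9 0.49 and -0.48. In aged cells P3h3 stood at 10.6 CPM on soft and 6.59 on stiff, and Prr9 at 4.83 and 2.07. These aged levels lie below the minimum of 20 CPM, so neither gene counts as measured in the aged pair. Hist1h2ap, Gstp1, Gm10076 and Grcc10 have over 75% of their 3' words in common with other genes, and Usp50 and Prr9 have none.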

How the results depend on the processing

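The S phase median stayed below 0 under every alternative run, from -0.17 to -0.13 in all cells and from -0.18 to -0.10 in the low bin and from -0.16 to -0.08 when weighted to the soft bin shares, and the Z disc median in all cells stayed between 0.13 and 0.16. Stiff minus soft bin shares ranged from -1.82 to 0.24, -0.04 to 2.05 and -0.53 to 0.54 percentage points (low, middle, high).

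Genes past 1.5-fold numbered 5 lower and 0 higher at a minimum of 50 CPM, and 15 and 4 at 5 CPM; 3 were lower among genes with at most 25% shared words, an alternative chosen after seeing the data. The thick filament median in all cells was 0.0261 with summed UMIs and 0.0317 at 5 CPM. In the low bin it was -0.80 with summed UMIs, -0.62 under median-of-ratios scaling, -0.68 with a pseudocount of 1, -0.60 at 5 CPM, -0.19 after thinning, -0.0185 with Myog edges 6 and 10, and reversed to 0.19 with edges 8 and 12. The middle-bin Z disc median was 0.35 with edges 6 and 10, 0.0616 with 8 and 12, and 0.19 in bins of contractile level.

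Medians near 0 crossed it: low-bin G2 and mitosis ran from -0.0049 to 0.0555 and YAP and TAZ targets in all cells from -0.0346 to 0.0073. Other medians that changed sign were low-bin calcium genes, -0.0083 with summed UMIs, middle-bin G2 and mitosis, -0.0223 at 50 CPM and -0.16 with edges 6 and 10, high-bin histones, 0.0149 at 50 CPM and 0.0235 by contractile level, and low-bin Z disc, 0.0284 after thinning and 0.0093 by contractile level. Low-bin muscle energy was 0.0454 (edges 6 and 10), 0.0289 (8 and 12) and 0.0933 (contractile level), the middle-bin thick filament -0.0004 (8 and 12), and middle-bin ribosomal genes 0.0029 (contractile level). With at most 25% shared words, mitochondrial genes were at -0.0718 and histones at 0.0029. The cause was not tested. Of named genes, 1228 values under alternatives moved by less than their counting interval and 104 by more.

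No paired analysis was possible because each group was 1 library. Depth limits what can be said of genes near 20 CPM, at which a cell with the median depth holds less than 1 UMI on average.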
